A study of Mus musculus with 6 samples.

Results

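The NMDA receptor subunit genes are the 7 mouse Grin genes (Grin1, Grin2a, Grin2b, Grin2c, Grin2d, Grin3a and Grin3b). They were found in the deposited gene table by their Ensembl identifiers, as 7 of its 54532 gene rows. The series holds bulk RNA-seq of dorsal root ganglia, which lie along the spinal cord and house the cell bodies of sensory neurons, from C57BL/6 mice at 8 weeks after birth. The 3 libraries called Hdac2 cKO below carried Cre recombinase with floxed Hdac2 (Adv-Cre+/hdac2-flop++ in the labels). Cre is driven there by the Advillin (Avil) promoter, known for its activity in sensory neurons. Whether Cre also acted in glia or other cells of the ganglion was not tested. The 3 control libraries, called WT, came from littermates without Cre that carried the floxed alleles too (hdac2-flop++), and no group had Cre alone. No source used here says whether a library is 1 mouse or several pooled, and a p-value measures the spread between these libraries. The title of the series ties HDAC2, a histone deacetylase, to NMDA receptor activity in chronic pain, and the comparison here asks whether the subunit transcripts differed.

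NMDA receptors are tetrameric cation channels. Those built of GluN1 and GluN2 subunits open only when glutamate and a co-agonist, glycine or D-serine, are both bound. They also need depolarisation to lift the magnesium block. GluN1 (Grin1) is in every receptor and binds the co-agonist. GluN2A to GluN2D (Grin2a to Grin2d) bind glutamate and set the kinetics, and GluN3A and GluN3B (Grin3a, Grin3b) give receptors with low calcium permeability. In sensory neurons, receptors on the central terminals can raise glutamate release onto spinal cord neurons.

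Values are read counts divided by 1 size factor per library (normalised read counts). A log2 fold change is the knockout mean less the control mean of log2 (value + 1), which for low genes depends on the added 1 and can lie far from the ratio of the group means. A gene was called where the adjusted p of limma, fitted over 18410 genes, was under 0.05. Reads per library ranged from 18943595 to 42070531. Hdac2 itself read 2816, 1715 and 3498 in the WT libraries, against 499.1, 371.5 and 535.0 in the knockouts (log2 fold change -2.47, SE 0.31, limma adjusted p = 0.927). It was lower in each knockout library and had the smallest p of all genes, yet it did not pass. WT 3 was the highest of the 6 libraries for 30.5% of tested genes and the lowest for 40.7%. Normalised read counts of Y-linked genes summed to 3649 in WT 2, 5698 in WT 3 and 3993 in Hdac2 cKO 2. No other library exceeded 7.06, so 2 WT libraries and 1 Hdac2 cKO library stood high in Y-linked genes.

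All 7 genes passed the filter on low values, and none was called by limma (0% of all tested genes were), by edgeR (0%) or by DESeq2 (0.152%), which gave Grin2b no p-value. Limma gave 341 genes an unadjusted p under 0.05. Of the 7 genes, 5 had a log2 fold change below 0 (Grin1, Grin2a, Grin2b, Grin2c and Grin2d) and 2 above it (Grin3a and Grin3b). Their median was -0.43, beside 0.06 over all genes tested. The groups did not overlap for Grin3a, which was higher in Hdac2 cKO, as 4.63% of all tested genes were. No member was lower without overlap, as 3.91% of tested genes were. In bulk RNA, fewer cells of a type and less RNA per cell cannot be told apart.

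**Figure D1:**
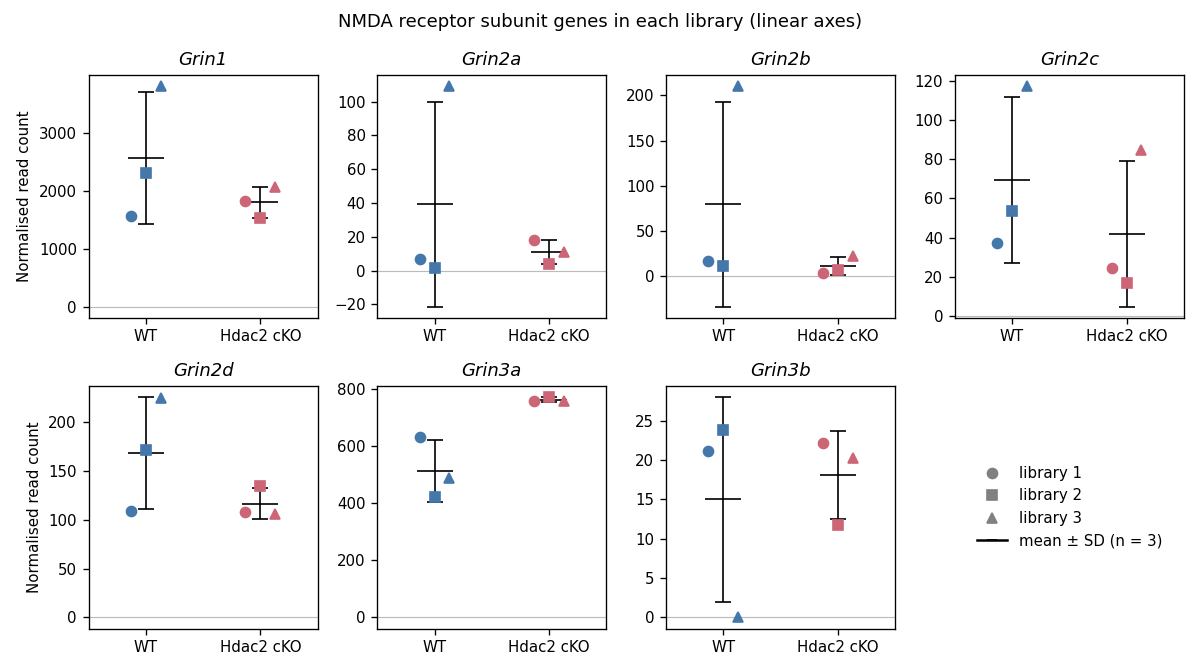
Normalised read counts of the 7 subunit genes on linear axes, 1 panel per gene, with WT in blue and Hdac2 cKO in red. Symbols mark the library number, and bars give the mean ± SD of 3 libraries. WT 3 (blue triangle) was the highest library for 5 genes and stood at 0 for Grin3b, while the 3 knockout values of Grin3a lay between 756.1 and 772.5, above all WT values.

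Promoter sequences were matched in the RefSeq table (GRCm38.p6, the assembly of mm10) for 4 of the 7 genes, Grin1, Grin2c, Grin2d and Grin3b. Those of Grin1 and Grin3b are shown because they belong to the most abundant subunit and to the one with no read in WT 3, and because they lie at opposite ends in CpG content. Each is the 250 bases before the start site, 5′ to 3′ on the gene's strand, with CpG dinucleotides in capitals. They lie at chr2:25319188-25319437 (minus strand) for Grin1 and at chr10:79970474-79970723 (plus strand) for Grin3b.
Grin1: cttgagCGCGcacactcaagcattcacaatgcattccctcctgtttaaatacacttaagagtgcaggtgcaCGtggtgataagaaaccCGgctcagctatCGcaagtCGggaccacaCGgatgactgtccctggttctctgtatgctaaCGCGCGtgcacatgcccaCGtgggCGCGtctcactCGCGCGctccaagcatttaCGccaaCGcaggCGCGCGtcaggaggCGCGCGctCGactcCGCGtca
Grin3b: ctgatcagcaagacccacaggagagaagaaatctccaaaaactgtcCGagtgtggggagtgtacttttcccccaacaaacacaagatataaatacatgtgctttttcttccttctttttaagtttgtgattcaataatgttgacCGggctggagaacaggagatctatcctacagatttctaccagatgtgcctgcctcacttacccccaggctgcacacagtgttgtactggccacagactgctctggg

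The Grin1 window held 27 CpG dinucleotides, and 8.56% of the 32851 promoters in the table held as many or more. The windows of Grin2c and Grin2d held 15 and 9, and that of Grin3b held 2, beside a median of 6 over all promoters. The Grin2d window (chromosome 7, 45866682 to 45866931) precedes a RefSeq start and lies inside the GENCODE span of Grin2d given below. The letters GGGCGG, the GC box, searched on both strands, occurred 3 times in the Grin2c window and in 32.7% of all promoters. The letters TATAAA occurred once in the Grin3b window and in 12.4% of all promoters. A match describes these letters and is not a bound site.

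Grin1 (ENSMUSG00000026959, mm10 chromosome 2, 25291181 to 25319187, minus strand), the obligatory subunit, had normalised read counts of 1569, 2308 and 3804 in the control libraries 1, 2 and 3. The knockout libraries 1, 2 and 3 held 1813, 1521 and 2059. The groups overlapped, WT 3 was the highest library, and the knockout values lay within or just below the range of WT 1 and WT 2. The log2 fold change was -0.43 (SE 0.34), with a 95% confidence interval from -1.21 to 0.36, so the interval of the ratio runs from 0.431 to 1.28 (limma adjusted p = 0.927). Leaving out WT 3 brought this value to -0.09, and leaving out WT 1 to -0.73. An antisense gene, Grin1os, overlaps 13.5% of the Grin1 exon bases and stood at 34.8 in WT 3 and between 2.95 and 17.5 in the other libraries.

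The GluN2 genes were far less abundant. Grin2d (ENSMUSG00000002771, chromosome 7, 45831883 to 45878378, minus strand), whose subunit gives the slowest receptor closing, gave 109.4, 171.2 and 224.9 in the WT libraries, against 108.1, 134.7 and 106.3 in the knockouts. WT 1 lay among the knockout values, while WT 2 and WT 3 lay above all of them. Its log2 fold change was -0.48 (SE 0.37, 95% interval -1.34 to 0.38), and it was -0.24 without WT 3 and -0.76 without WT 1. Grin2c (ENSMUSG00000020734, chromosome 11, 115249169 to 115267243, minus strand), best known from cerebellar granule cells, gave 37.1, 53.6 and 117.5 in the WT libraries, against 24.2, 16.7 and 84.6 in the knockouts. The library numbered 3 was the highest in both groups. The log2 fold change of Grin2c was -0.90 (SE 0.75, 95% interval -2.65 to 0.86). It was -0.44 without WT 3, -0.43 without Hdac2 cKO 2, -1.57 without Hdac2 cKO 3 and -1.11 without both libraries numbered 3. Between libraries of the same number, which the labels do not pair, Grin2c and Grin2d were each lower in the knockout in 3 of 3 pairs. For Grin2d the libraries numbered 1 were almost equal (109.4 and 108.1). Grin1 was higher in the knockout between libraries numbered 1, and Grin2a between those numbered 1 and those numbered 2. The share of all tested genes lower in 3 of 3 pairs was not counted.

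Grin2b and Grin2a encode the main GluN2 subunits of the forebrain, and in these ganglia most libraries held few reads of either. Grin2b (ENSMUSG00000030209, chromosome 6, 135713233 to 136173511, minus strand) had 19, 8 and 206 recovered reads in the controls 1, 2 and 3 against 4, 7 and 32 in the knockouts. Normalised, the controls held 16.8, 11.9 and 210.5 and the knockouts 4.04, 6.88 and 22.4. WT 3 stood 14.7-fold above the mean of WT 1 and WT 2, which lay between the knockout values. Between libraries of the same number, Grin2b was lower in the knockout in 3 of 3 pairs, with no share over all tested genes to set beside it. The log2 fold change of Grin2b was -1.90 (SE 1.22) with an interval from -4.76 to 0.96, and between -2.65 (without WT 2) and -0.63 (without WT 3) with 1 library left out. DESeq2 gave no p-value for Grin2b, as it does for a gene with an extreme count in 1 library.

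Grin2a (ENSMUSG00000059003, chromosome 16, 9567898 to 9995560, minus strand) had 8, 1 and 107 reads in the controls against 18, 4 and 16 in the knockouts. Its normalised read counts were 7.06, 1.49 and 109.4 in the WT libraries, against 18.2, 3.93 and 11.2 in the knockouts. WT 3 stood 25.6-fold above the mean of the other WT libraries. The ratio of the group means was 0.282, yet the log2 fold change was only -0.31 (SE 1.47, 95% interval -3.75 to 3.13), since it averages log values. Without WT 3 it turned to 1.23, without Hdac2 cKO 2 to 0.23, and with array weights to 1.46. No direction is given for Grin2a.

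Grin3a (ENSMUSG00000039579, chromosome 4, 49661611 to 49845744, minus strand) was the one member whose groups did not overlap. It gave 630.0, 419.9 and 487.5 in the WT libraries, against 757.8, 772.5 and 756.1 in the knockouts, and the lowest knockout value lay above the highest WT value. The knockout values differed among themselves by 1.02-fold, less than the WT values did. The means were 512 ± 107 and 762 ± 9.05 (SD, n = 3 each). The log2 fold change was 0.59 (SE 0.23), a ratio of 1.51 with a 95% interval from 1.04 to 2.19. The unadjusted limma p was 0.0359, and 0.875% of all tested genes were higher with an unadjusted p under 0.05. Adjusted over every gene tested, Grin3a missed the threshold (limma adjusted p = 0.927). With array weights, which count steadier libraries more, it was called (log2 fold change 0.78, limma adjusted p = 0.0338), as were 3.08% of all tested genes. Those weights were 4.17 for WT 2, which holds the lowest Grin3a value, and 0.101 for WT 3. Without each library in turn the log2 fold change lay between 0.46 and 0.75 and did not pass. Its exons overlap no other annotated gene.

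Grin3b (ENSMUSG00000035745, chromosome 10, 79970715 to 79977190, plus strand), a subunit best known from motor neurons, gave 21.2, 23.8 and 0 in the WT libraries, against 22.2, 11.8 and 20.3 in the knockouts. WT 3 had no read, which allows a level of up to 3.07 normalised read counts (3 reads, counting error only). The other 5 libraries had 12 to 29 reads. The log2 fold change of Grin3b was 1.17 (SE 1.35, 95% interval -1.99 to 4.33), while the ratio of the group means was 1.21 and edgeR gave a log2 fold change of 0.28. It turned to -0.34 without WT 3. Exons of Tmem259, a protein-coding gene on the opposite strand, overlap 32.1% of the Grin3b exon bases. Tmem259 stood at 12698 in WT 3 and between 2374 and 3841 in the other libraries. No source used here gives the strand setting of the counting, and the part of this overlap in the Grin3b values was not tested.

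**Figure D2:**
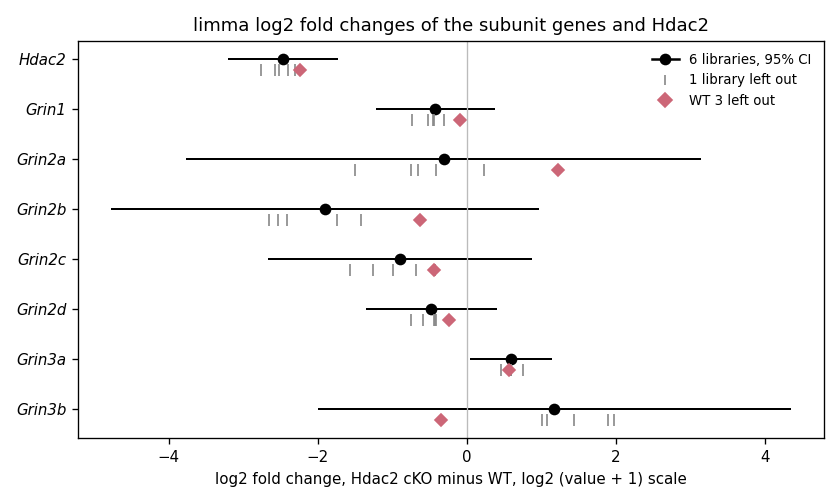
Log2 fold change (Hdac2 cKO minus WT, log2 (value + 1) scale) of the 7 subunit genes and Hdac2. Black points and lines give limma estimates from 6 libraries with 95% confidence intervals, grey ticks each estimate with 1 library left out, and red diamonds the estimate without WT 3. The interval of Grin3a runs from 0.05 to 1.13, those of the other 6 subunit genes include 0, and the diamonds of Grin2a and Grin3b lie on the other side of 0 from their points.

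The level of each subunit was then set on a scale per length, as normalised read counts per 1000 bases of merged exons. Grin1 led with a control mean of 264 ± 117 and a knockout mean of 185 ± 27.7 (SD, n = 3 each). Grin3a followed at 41.7 ± 8.74 and 62.1 ± 0.738, and Grin2d at 25.3 ± 8.68 and 17.5 ± 2.38. Grin1 was above Grin3a in 6 of 6 libraries, by 2.49-fold to 9.87-fold, and Grin3a above Grin2d in 6 of 6, by 1.18-fold to 3.86-fold. These 3 genes did not overlap in range, so this part of the order held in both groups.

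Below them the neighbours overlapped. Grin2c (mean of 6 libraries 11.04 per 1000 bases), Grin3b (5.02), Grin2b (1.83) and Grin2a (1.41) were each above the next in 4 or 5 of 6 libraries, and Grin2d was above Grin2c in 5 of 6. Per 1000 coding bases the order from Grin1 to Grin2c was the same, while Grin3b moved to the last place by its mean (5.46). Grin2a was above Grin3b on that scale in 1 of 6 libraries, WT 3. Merged exons of Grin2b span 24842 bases, of which 4447 are coding, against 3296 and 3033 for Grin3b. The order of the means of these low genes changed with the choice of length, and this rested on WT 3. Per 1000 coding bases, Grin3b stood at 0 and Grin2b at 47.3 in WT 3, while Grin3b was above Grin2b in each other library.

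Grin1 made up 66.2, 75.2 and 77.9% of the summed per-length level of the family in the controls and 67.3, 63.4 and 67.5% in the knockouts. Grin3a made up 21.005, 10.8 and 7.89% in the controls and 22.2, 25.4 and 19.6% in the knockouts. WT 1 lay within the range of the knockout libraries for both shares, and WT 2 and WT 3 held less Grin3a. The per-length ratio of Grin3a to Grin1 was 0.317, 0.144 and 0.101 in the WT libraries, against 0.330, 0.401 and 0.290 in the knockouts. WT 1 lay among the knockout values, so the groups overlapped. The log2 ratio was higher in Hdac2 cKO by 1.02 (exact two-sided permutation test p = 0.2, adjusted over 3 ratios p = 0.4), and by 0.66 without WT 3 and 1.48 without WT 1. The smallest p that 3 against 3 allows is 0.1.

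The summed GluN2 genes stood at 0.154, 0.155 and 0.183 of the Grin1 level in WT and at 0.119, 0.153 and 0.162 in Hdac2 cKO. Grin1 and the GluN2 sum were both highest in WT 3. Its log2 difference was -0.19 (exact permutation p = 0.4, adjusted p = 0.4), and the SD of the log2 ratio was 0.14 in WT and 0.24 in Hdac2 cKO. The difference was -0.05 without Hdac2 cKO 1. On coding length it was -0.31, with ratios of 0.0805, 0.0773 and 0.124 in the controls. The ratio of Grin2b to Grin2d gave 0.0411, 0.0186 and 0.251 in the WT libraries, against 0.01002, 0.0137 and 0.0564 in the knockouts. WT 3 was the highest library here as well, and the log2 difference of -1.54 (exact permutation p = 0.4, adjusted p = 0.4) was -0.48 without it and -2.36 without WT 2.

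**Figure D3:**
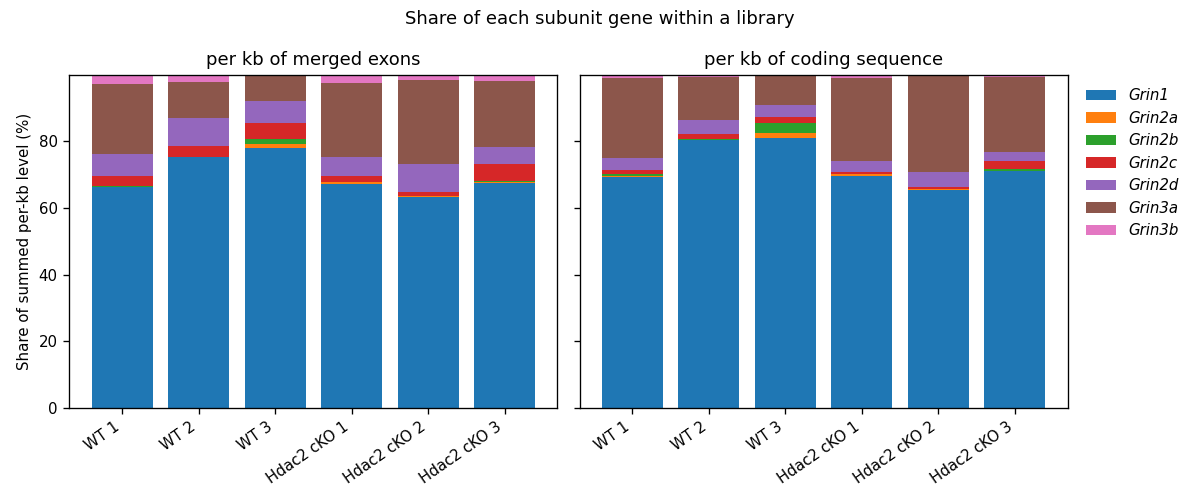
Share of each subunit gene (%) in the summed per-length level of the 7 genes, 1 bar per library, per 1000 bases of merged exons (left) and of coding sequence (right). Grin1 takes 63.4 to 77.9% of every bar on the left, Grin3a 7.89 to 25.4%, and Grin2a and Grin2b show as visible bands in WT 3.

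As most differences shrank or turned without WT 3, the levels of marker genes were set beside the members. The 12 sensory neuron markers, all present in each library, summed to 622154 in WT 3 and to 393756 to 555590 elsewhere. Highly expressed genes dominate this sum. Of the 12 markers, 4 were highest in WT 3 and 3 lowest there, and their median deviation from the mean of 6 libraries was 0.07 in WT 3 (log2). Of 10 markers of central neurons of the spinal cord, 4 were highest in WT 3. Another 4 were at 0 there, as were 4 in Hdac2 cKO 1 and 4 in Hdac2 cKO 2. The median deviation of the list from its mean was -0.02 in WT 3 (log2). The list summed to 419 in WT 3 and to 138 to 199 in the others. Most of the WT 3 sum came from Lhx1 and Chat, named after their values were seen, which stood at 141.0 and 85.9 there and at no more than 7.86 and 1.97 elsewhere. Slc32a1, Slc6a5 and Lhx5 were at 0 in WT 3 and also in Hdac2 cKO 1 and Hdac2 cKO 2. The motor neuron marker Mnx1 was at 0 in WT 3 only. Gad1 was at its lowest in WT 3 (8.18) and Slc5a7 at its highest (124.7). Of 9 central glia markers, Opalin, an oligodendrocyte gene also named after its values were seen, stood at 28.6 in WT 3 and at 0 in the other libraries, while the sum of the list was 1022 in WT 3 and 965 to 1646 elsewhere. The part of these cell types in the Grin2a and Grin2b values of WT 3 was not tested.

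Other marker lists moved with the groups. All 10 skeletal muscle markers had log2 fold changes below 0, with sums of 10021, 4229 and 3115 in the controls against 319, 1342 and 166 in the knockouts. All 7 markers of myelinating Schwann cells had log2 fold changes below 0 (median -0.82), with Ncmap at -0.008 (SE 0.24). Without WT 1, 2 of the 7 were above 0, and without WT 3, 1 was. Of the muscle markers 9 of 10, and of the Schwann cell markers 4 of 7, were lower without overlap, beside 3.91% of all tested genes. Limma called none of these genes. DESeq2 called 3 muscle markers and 1 Schwann cell marker lower, beside 0.152% of all tested genes called in either direction. Array weights called 3 of each list lower, beside 3.08% of all tested genes called in either direction. The part of these cell types in the Grin values was not tested. The sensory neuron markers had 4 above 0 and 8 below (median -0.06), with 3 higher and 1 lower without overlap. Without WT 3, 7 were above 0 and 5 below. Non-peptidergic and itch neuron markers had 7 above 0 and 2 below (median 0.51, and 0.22 without WT 3), with 2 higher without overlap. Peptidergic nociceptor markers had 5 above 0 and 2 below (median 0.31), with 1 higher without overlap. Among all tested genes 4.63% were higher without overlap. Limma called none of these neuron markers.

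**Figure D4:**
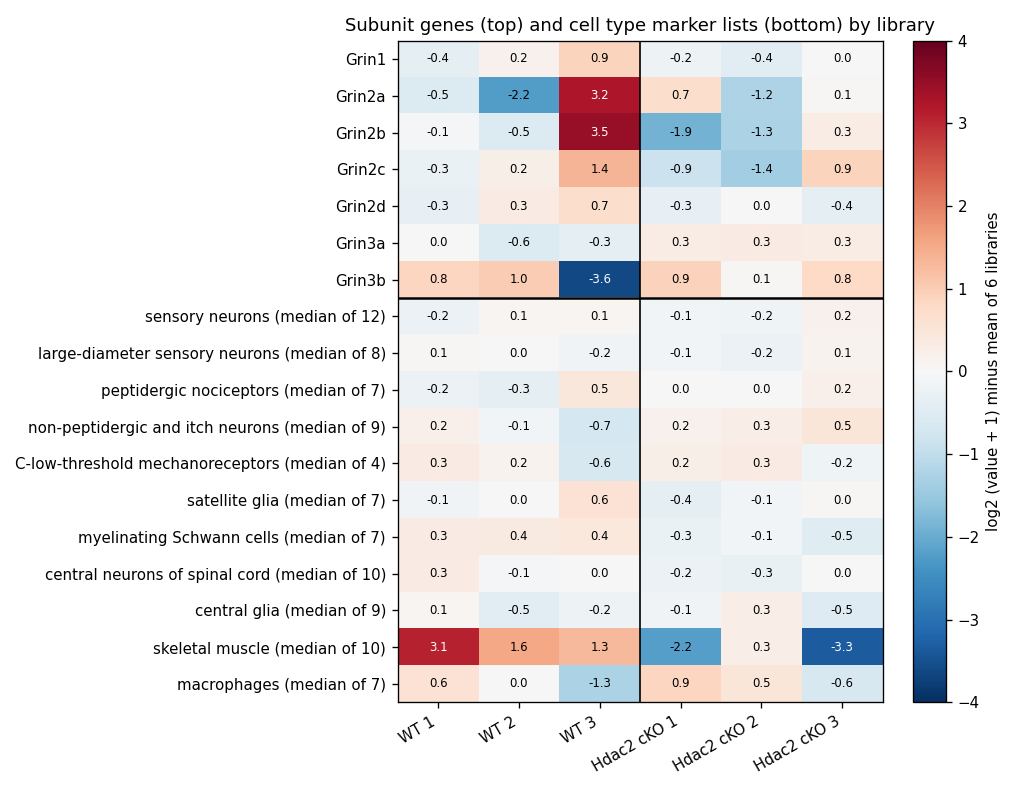
Log2 (value + 1) of the 7 subunit genes (top) and the median of each cell type marker list (bottom) in every library, each minus its mean over 6 libraries. Red is above and blue below that mean. Grin1 and the GluN2 genes are reddest in WT 3, Grin3b is bluest there, and the macrophage and non-peptidergic neuron markers are below their mean in WT 3.

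Other genes of the receptor's pathway were taken from 6 lists, and limma called none of their tested members. Among 24 scaffold and signalling partners, which hold the receptor at the synapse, 14 had log2 fold changes above 0 and 10 below (median 0.15, and 0.05 without WT 3). Nos1, the neuronal nitric oxide synthase, averaged 1147 ± 592 in the controls against 2094 ± 245 in the knockouts (normalised read counts, SD, n = 3 each). Homer2, a scaffold protein, averaged 1316 ± 180.2 and 1889 ± 67.0. For both genes every knockout library was above every WT library, as for 3 of the 24 and for 4.63% of all tested genes. From each list the 2 genes of smallest unadjusted p are named, which favours groups that do not overlap. Among 20 kinases and phosphatases that act on the subunits, 13 were above 0 and 7 below (median 0.10, and -0.04 without WT 3). The kinase genes Prkca (log2 fold change 0.33, SE 0.23) and Cdk5 (-0.39, SE 0.33) had the smallest unadjusted p there, and their groups overlapped.

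Of 13 trafficking genes 7 were above 0 and 6 below (median 0.19, and -0.03 without WT 3). Neto2, an auxiliary subunit of kainate receptors, averaged 451 ± 223 in the controls against 745 ± 57.4 in the knockouts, and Gipc1, a PDZ protein, averaged 2492 ± 556 and 1763 ± 73.4. Of 10 tested genes of glycine and D-serine supply 4 were above 0 and 6 below (median -0.02). Slc1a4, a neutral amino acid transporter that carries serine, stood at 1668 ± 434 and 2395 ± 150.2, without overlap, and Phgdh, the first enzyme of serine synthesis, at 2408 ± 565 and 1811 ± 231.

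Of 13 genes of glutamate release and uptake 7 were above 0 and 6 below (median 0.08, and -0.03 without WT 3). Slc17a6, the vesicular glutamate transporter VGLUT2, had a log2 fold change of 0.48 (SE 0.22) without overlap, and the transporter gene Slc1a6 one of 0.57 (SE 0.42). All 7 transcription factors of the list linked to Grin promoters were above 0 (median 0.33, and 0.21 without WT 3, beside 0.06 and -0.01 over all genes). Nrf1 stood at 432 ± 66.9 and 599 ± 35.01, and Mef2c at 742 ± 371 and 1089 ± 20.8. Neither was called (limma adjusted p = 0.927). Cacna2d1, which encodes the α2δ-1 protein named in the series title as tied to NMDA receptor activity, gave 5862, 4708 and 3725 in the WT libraries, against 6326, 7000 and 6579 in the knockouts. It was higher in Hdac2 cKO without overlap, as 4.63% of all tested genes were (log2 fold change 0.50, SE 0.22, limma adjusted p = 0.927).

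**Figure D5:**
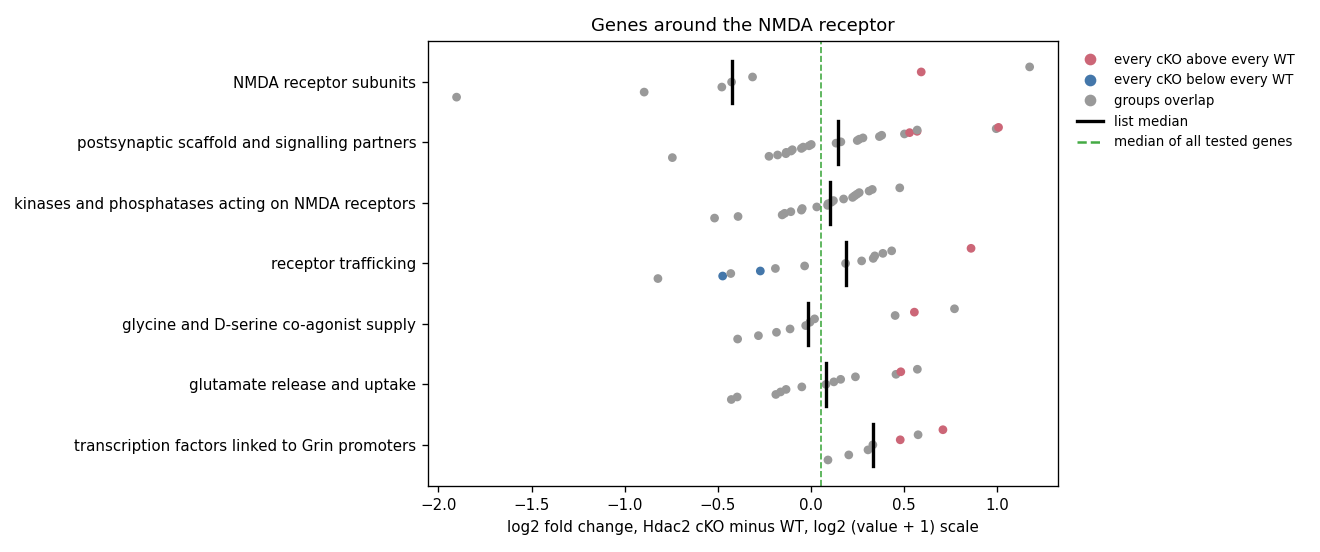
Log2 fold change (Hdac2 cKO minus WT, log2 (value + 1) scale) of each tested gene of the subunit family and of 6 pathway lists, 1 point per gene. Red and blue points mark genes whose groups did not overlap, black bars list medians, and the dashed line the median of all tested genes (0.06). The subunit median lies at -0.43 and that of the transcription factors at 0.33.

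Genes with the library pattern most like a member were ranked by the root mean square difference of mean-centred log2 values over the 6 libraries, among genes with a mean of at least 100. For Grin1 they were Tnk2 (0.0382), Pstk (0.0574) and Dbnl (0.0598), and 575 of 13031 genes lay within 0.2. Grin2d was closest to Scrn2 (0.0781), Mvd (0.0878) and Frat2 (0.0916), and 189 genes lay within 0.2. Grin3a was closest to Dgkg (0.0698), Gprin2 (0.0731) and Casp8ap2 (0.0783), with 222 genes within 0.2. Grin2b had no gene within 0.2, and its nearest were Dnaaf2 (0.403), Jsrp1 (0.471) and Ccdc85b (0.534). These 3 genes, like Grin2b, were highest in WT 3, which follows from how they were picked. The 6 points share library depth and composition, so the likeness is a description.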

How the data were processed

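Bulk RNA-seq of dorsal root ganglia was deposited as 1 gene table with 6 columns, 3 WT and 3 Hdac2 cKO. The submitters' processing notes name HISAT2, SAMtools, featureCounts, DESeq2 and the mm10 build. For versions, annotation and strand setting: not given in the sources used here. The values deposited by the authors are a signal, read counts divided by 1 factor per library, and 100% of values in every column were whole multiples of 1 step within 0.01. Reads were recovered by dividing by that step and used for count tests as alternatives. Among genes with 1 to 20 recovered reads, 60.2 to 64.4% of counts were even in 5 libraries and 42.4% in WT 2, so a recovered read may not be the same unit in each library. The effect of this on the count tests, the floor of 3 reads and the array weights was not tested. For Hdac2 cKO 1 the step is so near 1 that an automatic check could not assess it. Of 54532 rows, 54495 identifiers matched GENCODE M21 (GRCm38), used for names, coordinates and lengths.

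Genes with 3 or more libraries at 10 or above were fitted with limma 3.58.1 (R 4.3.3) on log2 (value + 1), with trend and robust settings and Benjamini-Hochberg adjustment over 18410 genes. Ratios of per-length levels were compared by exact permutation. Alternatives were edgeR 4.0.16, DESeq2 1.42.0, other scalings, pseudocounts and filters, array weights, each library left out, and a replicate block. Deviations of same-numbered libraries correlated at 0.40, 0.15 and 0.42, which was taken as pairing from the data, as the labels state none. WT 1 also correlated with Hdac2 cKO 2 (0.34), near its 0.40 with Hdac2 cKO 1 and above the 0.15 of the libraries numbered 2. Support for the pairs numbered 1 and 2 is therefore weak. Scripts were tested on simulated data, with a pass condition for limma only, at a lower spread between libraries than in these data.

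The members and lists were chosen with earlier results of these data known. Named genes are the 7 members, Hdac2, Cacna2d1, the 2 genes of smallest unadjusted p in each pathway list with no call, and the 3 genes most like each of Grin1, Grin2d, Grin2b and Grin3a. Others were named after their values were seen. Promoters come from RefSeq.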

Additional observations from a re-analysis of the deposited data

How the results depend on the processing

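No gene was called in the limma fit, nor without any 1 library (0 to 0 genes). Array weights called 567 genes, DESeq2 28, and limma without both libraries numbered 3 called 5. Hdac2 passed with array weights (log2 fold change -2.13, limma adjusted p = 0.00173) and with DESeq2 (-2.54, adjusted p = 1.7e-08), and Grin3a with array weights (0.78). Grin2a reversed with array weights (1.46) and without both libraries numbered 3 (1.12), and ranged from -1.51 to 1.23 without each library. Grin3b reversed with array weights (-0.47) and without both libraries numbered 3 (-0.44), and ranged from -0.34 to 1.97 without each library. The cause was not tested. The replicate block called 0 genes (Grin3a 0.59, limma adjusted p = 0.674). Each block held 1 library of each group, so its log2 fold changes equal those of the limma fit and no direction could turn. Grin1, Grin2b, Grin2c, Grin2d and Grin3a kept their direction under all alternatives run on them, a sex term chosen after seeing the data included. Of these, the filters and the replicate block leave a log2 fold change as it was and could not turn one. A filter of 50 removed Grin2a, Grin2b and Grin3b. Outside WT 3, these 3 genes had between 1 and 32 reads per library.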
